A study of Mus musculus with 4 samples.

Results

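The RFX (regulatory factor X) family was followed in the testis RNA of Rfx2 mutant and control mice. It was taken as 10 genes of the 22311 measured, chosen by symbol and whatever their values: Rfx1 to Rfx8, which encode proteins with the RFX DNA-binding domain, and Rfxap and Rfxank, which encode the partners of RFX5. Each symbol had a single entry in each sample. RNA came from all cells of the testes of 24-day-old male mice, in 2 mutant and 2 control samples. The mutant samples are labelled rfx2-/- and carry, on both copies in every tissue, an allele in which exons 6 and 7 are replaced by a phosphoglycerate kinase-neomycin cassette, and this line comes from 1 embryonic stem cell clone. The labels call the controls wild type and give the strain of all samples as DBA, whereas the methods of the study describe heterozygous controls and a background that mixes 129/s6 with C57BL/6. The methods call the 2 samples of each genotype independent biological replicates but do not say whether several mice were pooled in one.

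RFX proteins bind the X-box, an imperfect inverted repeat, through a winged-helix domain. RFX1 to RFX4 and their relatives in worms and flies read X-boxes in the promoters of genes for cilia and flagella, and many of them can pair with one another. RFX5 works differently: with RFXAP and RFXANK it forms a complex on the promoters of major histocompatibility complex (MHC) class II genes, where the coactivator CIITA joins it. RFX6 is known from the development of pancreatic islets, RFX7 is broadly expressed, and RFX8 is little studied.

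The expression unit was the deposited FPKM, a fragment count normalized for transcript length and sequencing depth, which allows levels to be compared between genes. The confidence bounds in the files correspond to an estimated 17.2 to 20.3 M fragments per sample. This estimate is lower than the read numbers that the study states. Summed FPKM of the 12 elongating spermatid markers were 1576 in mutant 1 and 7164 in mutant 2, against 8439 and 5796 in control 1 and 2, so mutant 1 stood apart from the other samples. The corresponding sums of 12 round spermatid markers were 1577, 2157, 2073 and 1635, and those of 12 pachytene spermatocyte markers were 3520, 3484, 3729 and 3207. Most of the pachytene sums came from Ldhc, at 2379, 2426, 2602 and 2155. Dkkl1 alone gave 939, 1073, 1056 and 789 of the round spermatid sums. In that list Acrv1, Catsper3, Crem, Izumo1, Lyzl1, Spaca1, Spaca7, Tssk1 and Tssk2 were lowest in mutant 1, and Acr, Dkkl1 and Zpbp in control 2. Sums of the Sertoli cell and spermatogonium markers ran from 549 to 812 and from 79.0 to 115, with the genotypes overlapping in both lists. Leydig cell markers summed to 425 and 237 FPKM in the mutants and 375 and 136 in the controls, and endothelial and smooth muscle markers to between 58.2 and 86.5. Clu alone gave 368 to 556 of the Sertoli cell sums. Insl3 alone gave 326 and 157 of the Leydig sums in the mutants and 266 and 51.5 in the controls. Of the multiciliated and duct epithelium markers, Cdhr4, a gene of multiciliated cells, was at 17.6 to 20.7 FPKM, the other 7 summed to between 2.41 and 3.68, and Scgb1a1 and Lcn8 were at 0 in every sample. In each of the 9 marker lists, limma called 0 genes at an adjusted p under 0.05, and so did limma-voom, while at most 1 gene per list had an unadjusted p under 0.05. Of all genes tested, limma called 2.83%, and limma-voom called 2.23% lower and 0.27% higher. At the unadjusted threshold 6.68% were lower and 2.01% higher.

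Exons 6 and 7 of Rfx2, in the numbering of its transcript of 17 exons, are printed here because the study replaced exons of these numbers and names them as encoding the DNA-binding domain that the family shares. Rfx2 (ENSMUSG00000024206) lies on the minus strand at chr17:56915320-56970431 of NCBIM37 (mm9). In that transcript, exon 6 at chr17:56927002-56927183 holds 182 coding bases and exon 7 at chr17:56926032-56926151 holds 120. The sources used here do not name the transcript behind the numbering of the targeted exons. A second transcript has 18 exons, in which these are exons 7 and 8, and its own exons 6 and 7 hold 257 coding bases, or 7.66% of that transcript. With their intron those exons span 11746 bases, longer than the genomic fragment that the study cloned for its targeting construct. The exons printed here span 1152 bases, so of these pairs only they can lie within that fragment. Capitals mark the bases that were identical in the aligned coding sequences of Rfx1 and Rfx3, which are 132 of 182 in exon 6 and 73 of 120 in exon 7.
Rfx2 exon 6: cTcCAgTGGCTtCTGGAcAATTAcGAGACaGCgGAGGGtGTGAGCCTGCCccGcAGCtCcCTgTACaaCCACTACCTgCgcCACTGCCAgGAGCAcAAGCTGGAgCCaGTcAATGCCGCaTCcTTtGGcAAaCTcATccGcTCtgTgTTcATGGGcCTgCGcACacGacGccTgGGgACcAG
Rfx2 exon 7: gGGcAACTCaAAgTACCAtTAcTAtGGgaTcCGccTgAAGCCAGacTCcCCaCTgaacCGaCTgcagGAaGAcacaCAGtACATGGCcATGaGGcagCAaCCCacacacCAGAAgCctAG

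Together these exons have 302 bases, which is 9.21% of the 3278 bases of the transcript and not a multiple of 3. The gene-level FPKM still counts fragments from the remaining exons of the mutant allele and cannot tell alleles apart. Over this stretch, the coding sequence of Rfx3 was identical to Rfx2 at 79.5% of aligned bases and that of Rfx1 at 79.0%. The other relatives were less alike, with 62.3% for Rfx4, 61.1% for Rfx6, 56.4% for Rfx7, 56.3% for Rfx8 and 55.7% for Rfx5. The longest exact run shared with any Rfx2 transcript was 40 bases in Rfx1, 23 bases in Rfx3 and in Rfx6, and 20 bases in Rfx4. The files do not show how reads within such runs were shared out between the genes.

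Rfx2 RNA, the product of the targeted gene, was lower in both mutant samples but far from absent. Its FPKM reached 36.7 and 39.8 in mutant 1 and 2, compared with 123 and 89.4 in control 1 and 2. The groups did not overlap, and the mutant mean was 36.0% of the control mean. The log2 fold change of FPKM + 1 was -1.43 (standard error 0.19, 95% interval -1.88 to -0.98, adjusted p = 0.00617 in limma after Benjamini-Hochberg correction over 12985 genes). At the same threshold limma called 367 of the genes tested (2.83%), of which 327 (2.52%) fell and 40 (0.308%) rose. The log2 fold change was -1.20 without control 1, the sample with the highest Rfx2 level, and -1.37 without mutant 1. The call was lost with no filter, with median-ratio scaling and with limma-voom, at adjusted p of 0.0607, 0.0829 and 0.0664 from limma. Fragment numbers for limma-voom were estimated from the bounds and were not in proportion to FPKM. Rfx2 had about 11000 in control 1 and 5406 in control 2, at 123 and 89.4 FPKM. The limma-voom result for Rfx2 therefore also rests on the bounds. In whole testis, fewer cells that express a gene and less RNA per cell cannot be told apart. By RT-PCR the study found that the mutant Rfx2 RNA skips the targeted exons, which shifts the frame to an early stop codon. Its Western blot showed no RFX2 protein in mutant testes, so the remaining FPKM is no measure of the protein.
The mutant testes still ranked Rfx2 among their more abundant RNAs, above 89.9% of genes in mutant 1 and 90.4% in mutant 2. In the controls it stood above 97.3% and 96.5%. Its bounds did not overlap in any of the 4 mutant and control pairs, but those of the 2 controls did not overlap either. Such bounds describe the error within a sample and not the spread between samples.

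**Figure D1:**
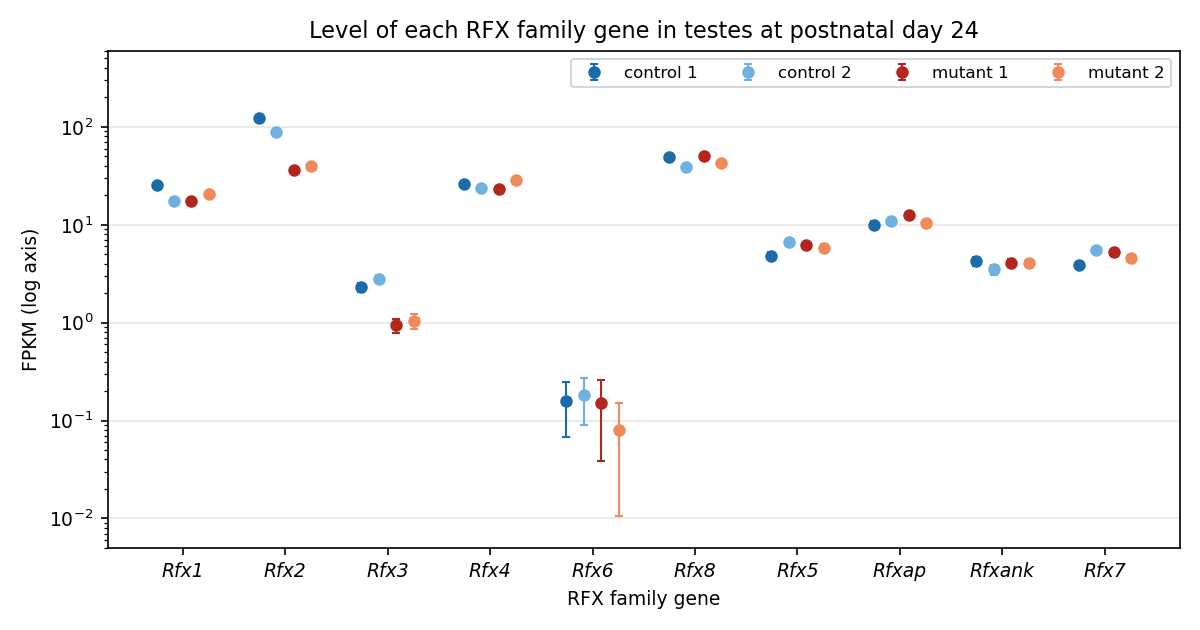
FPKM of the 10 RFX family genes in each sample (log axis), with points for the 4 samples and bars for the authors' confidence bounds. For Rfx2 and Rfx3 both mutants lay below both controls, Rfx6 lay under 0.2 FPKM with wide bounds, and the samples of the other 7 genes overlapped between genotypes.

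The family spanned a wide range of levels in testis. In control samples the order of mean FPKM was Rfx2 (106), Rfx8 (44.3), Rfx4 (25.1), Rfx1 (21.6), Rfxap (10.4), Rfx5 (5.73), Rfx7 (4.73), Rfxank (3.88), Rfx3 (2.54) and Rfx6 (0.169). Rfx1 overlapped Rfx4, Rfx7 overlapped Rfx5, and Rfxank overlapped Rfx7, so these neighbours could not be ordered by their samples. In mutant samples Rfx8 (46.5) came first and Rfx2 (38.3) second, followed by Rfx4, Rfx1, Rfxap, Rfx5, Rfx7, Rfxank, Rfx3 and Rfx6 in the order of the controls, and no neighbours overlapped. Control 1 had more Rfx2 than Rfx8 by a ratio of 2.50 and control 2 by 2.28, whereas the ratio was 0.724 in mutant 1 and 0.939 in mutant 2.

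Of the closest relatives of Rfx2 by sequence, Rfx3 lay lower in both mutants than in both controls but did not pass the test, and Rfx1 overlapped. RFX3 is a regulator of ciliary genes in many ciliated tissues, and its RNA was scarce here, with an FPKM of 0.946 and 1.04 in mutant 1 and 2 compared with 2.30 and 2.79 in control 1 and 2. The mutant mean was 39.1% of the control mean, and the bounds were apart in 4 of 4 mutant and control pairs. Bounds were also apart in 3 of 4 such pairs for Rfx1 and for Rfx7, whose samples overlapped between genotypes. The values of Rfx3 rest on about 144 to 148 fragments in the mutant and 333 to 433 in the control samples. The log2 fold change of FPKM + 1 was -0.83 (standard error 0.20, 95% interval -1.29 to -0.36, unadjusted p = 0.00357 and adjusted p = 0.0982 from limma), which did not pass the threshold. The pseudocount shrinks a gene at this level, and with a pseudocount of 0.01 its log2 fold change was -1.34. Robust eBayes gave it an adjusted p of 0.0445 in limma, the only setting tried that passed. Rfx3 (ENSMUSG00000040929, chr19:27836211-28085656, minus strand) overlaps 2 annotated antisense genes, and the labels do not say whether the libraries kept strand.

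Rfx1 (chr8:86590735-86620891, plus strand), a broadly expressed member that can activate or repress, had an FPKM of 17.5 and 20.8 in mutant 1 and 2 and of 25.5 and 17.6 in control 1 and 2. Control 1 was the highest sample, and the other control lay within the range of the mutants. The log2 fold change was -0.15 (95% interval -0.65 to 0.36, adjusted p = 1.0 from limma), which corresponds to a fold between 0.637 and 1.28 on the FPKM + 1 scale. Without control 1 it was 0.11, so its sign rested on that sample.

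The other abundant members, Rfx4 and Rfx8, did not differ detectably between genotypes. RFX4 is known from the ciliated cells of the developing brain, and its gene also has transcripts typical of testis. The FPKM of Rfx4 (chr10:84218807-84369283, plus strand) was 23.1 and 28.4 in the mutants against 26.4 and 23.8 in the controls, a log2 fold change of 0.03 (95% interval -0.38 to 0.45, adjusted p = 1.0 from limma). Both mutant samples flanked the controls. Gene-level FPKM do not separate the 6 annotated transcripts of Rfx4, so a shift between them would not be seen.
Rfx8 (ENSMUSG00000057173, chr1:39722151-39777842, minus strand) had an FPKM of 50.7 and 42.4 in the mutants against 49.3 and 39.2 in the controls. Sample 1 was the higher one in each genotype, and the groups overlapped. Its log2 fold change was 0.07 (95% interval -0.35 to 0.50, adjusted p = 1.0 from limma), so a fold from 0.783 to 1.42 was within the error. Leaving out mutant 1 or control 2 turned its sign, at -0.05 and -0.09.

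Rfx6 and Rfx7 complete the genes with the DNA-binding domain. Rfx6 (chr10:51397562-51450235, plus strand) was close to the limit of detection, with an FPKM of 0.150 and 0.0809 in the mutants against 0.156 and 0.181 in the controls, from about 5 to 16 fragments each. Both mutants were below both controls, but the bounds overlapped in all 4 pairs, and the gene fell under the filter and was not tested. Rfx7 (chr9:72380047-72470744, plus strand) had an FPKM of 5.21 and 4.61 in the mutants against 3.89 and 5.58 in the controls, with the controls flanking the mutants. Its log2 fold change was 0.06 (95% interval -0.49 to 0.60, adjusted p = 1.0 from limma).

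**Figure D2:**
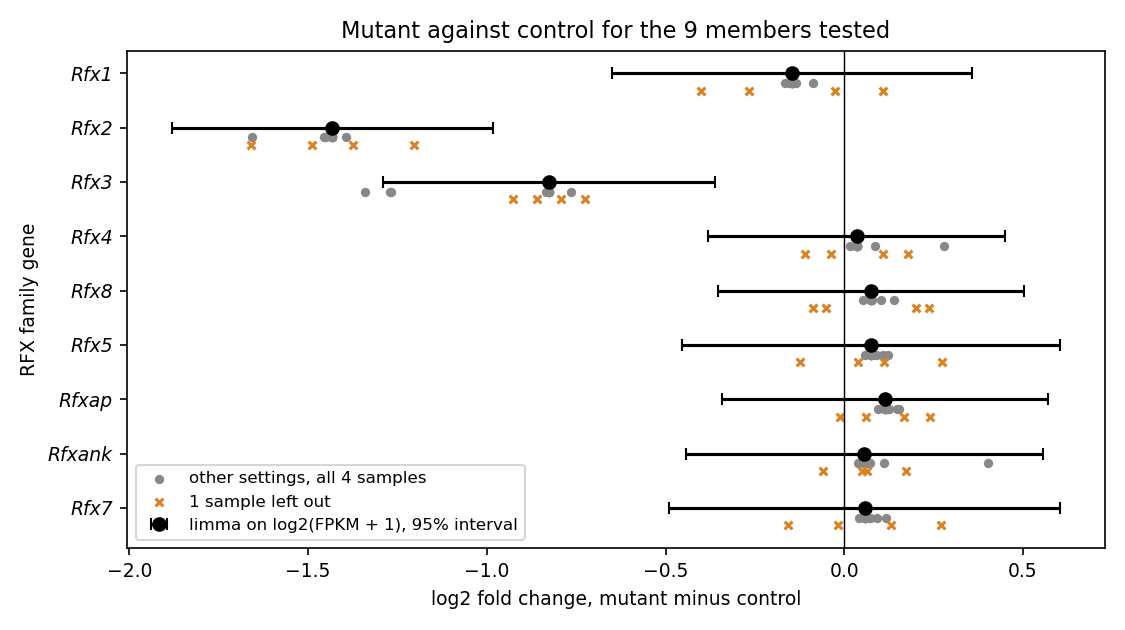
Log2 fold change, mutant minus control, of the 9 members tested, with black points and bars for limma on log2(FPKM + 1) and its 95% interval, grey points for other settings with all 4 samples, and orange crosses for fits with 1 sample left out. The intervals of Rfx2 and Rfx3 lie below 0, and those of the other 7 genes include 0.

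The 9 members tested thus held 1 lower and 0 higher gene by limma at the threshold of 0.05. At an unadjusted p under 0.05 they were 2 lower and 0 higher, where 6.68% of all genes tested were lower and 2.01% higher. On the fragment numbers limma-voom called 0 members in either direction, against 2.23% of genes called lower and 0.27% higher. Groups that did not overlap were found for 2 members, both lower in the mutant. Over all genes tested, 15.2% were lower and 16.3% were higher without overlap, so such a pattern alone is common with 2 samples per genotype. The median log2 fold change was 0.06 over the 9 members and 0.03 over all genes tested.

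**Figure D3:**
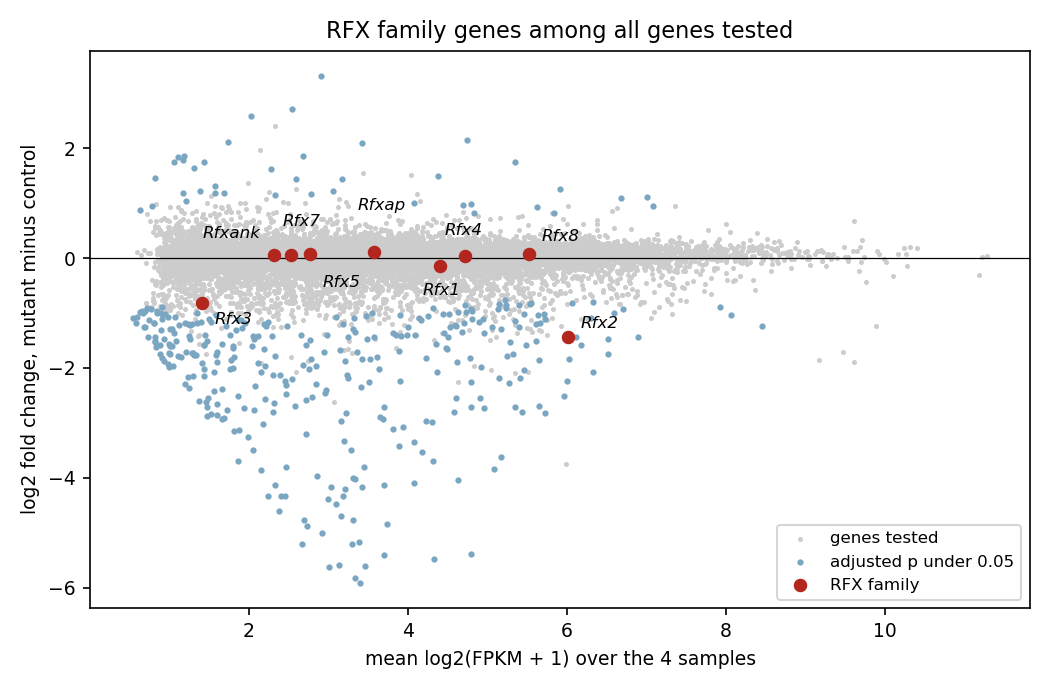
Log2 fold change, mutant minus control, against mean log2(FPKM + 1) over the 4 samples for the 12985 genes tested, with RFX family genes in red and genes at an adjusted p under 0.05 in blue. Rfx2 is the family gene among the blue points by its test, at a log2 fold change of -1.43, and 7 members lie near 0.

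Summing the 8 genes with the DNA-binding domain gave the total level of RFX factor RNA per sample. The sum was 140 and 143 FPKM in mutant 1 and 2 compared with 235 and 185 in control 1 and 2, a ratio of means of 0.674. Both mutants were below both controls, with a two-sided exact permutation p of 0.333, the smallest that 2 against 2 samples allow. Without Rfx2, the sum was 104 and 103 in the mutants against 112 and 95.8 in the controls. These sums overlapped, and their ratio of means was 0.995 (two-sided exact permutation p = 1.0), which was 0.992 without mutant 1, 1.08 without control 1 and 0.922 without control 2.
With the sum of the other members overlapping between genotypes, the composition of the total shifted. Rfx2 made up 26.1% and 27.8% of the sum in the mutants against 52.3% and 48.3% in the controls, a difference of -23.3 percentage points. Rfx8 made up 36.1% and 29.6% against 21.0% and 21.2%, and Rfx4 16.5% and 19.9% against 11.2% and 12.8%. These shares of a sum that Rfx2 itself lowers say nothing of a rise of Rfx8 or Rfx4, whose levels are given above. The shares of these 3 genes each had the smallest possible p of 0.333 in the exact permutation test.

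**Figure D4:**
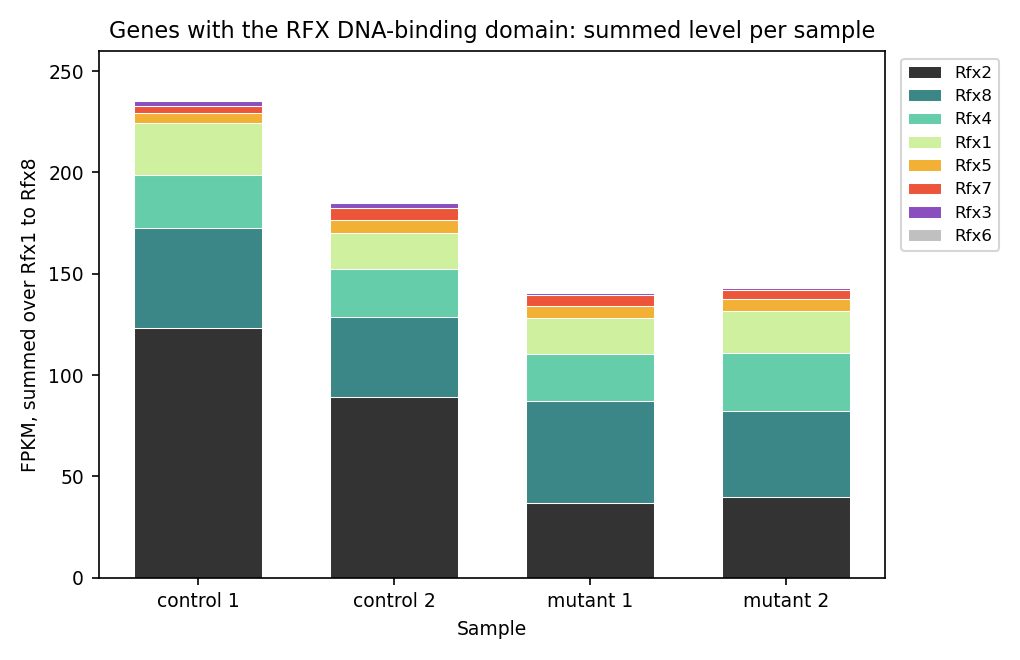
Summed FPKM of Rfx1 to Rfx8 in each sample as stacked bars from 0, with a colour for each gene. The Rfx2 segment is 36.7 and 39.8 FPKM in the mutants and 123 and 89.4 in the controls, and the segments above it add up to between 95.8 and 112 FPKM in all 4 samples.

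The RFX5 complex was measured with its class II targets. RFX5 supplies the DNA-binding domain of the complex, and its FPKM was 6.21 and 5.84 in the mutants against 4.82 and 6.65 in the controls. RFXAP, the associated protein, had 12.5 and 10.3 FPKM against 10.03 and 10.9. The ankyrin-repeat subunit gene Rfxank had 4.09 and 4.03 FPKM against 4.27 and 3.49. The genotypes overlapped for all 3 subunits, and their log2 fold changes were 0.07, 0.11 and 0.06, each with an adjusted p of 1.0 from limma. The 95% intervals allowed folds of 0.730 to 1.52 for Rfx5, 0.788 to 1.49 for Rfxap and 0.736 to 1.47 for Rfxank. The sum of the 3 subunits was 22.8 and 20.2 FPKM in the mutants against 19.1 and 21.0 in the controls (two-sided exact permutation p = 0.667). Rfx5 lies at chr3:94757997-94765483 on the plus strand, Rfxap at chr3:54607038-54611713 on the minus strand and Rfxank at chr8:72654711-72663096 on the minus strand. Like Rfx1 and Rfx4, Rfx5 and Rfxank overlap annotated antisense genes, whose reads cannot be told apart if strand was not kept.

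Of 9 MHC class II genes listed, 6 passed the filter, and limma called 2 of them higher and 0 lower, against 0.308% of all genes tested called higher. Their median log2 fold change was 0.76. The first was H2-Aa, the alpha chain of a class II molecule, with an FPKM of 5.01 and 2.69 in the mutants against 0.962 and 0.834 in the controls (log2 fold change 1.31, standard error 0.27, adjusted p = 0.0471 from limma). The second was Cd74, the invariant chain that escorts class II molecules, with 12.2 and 6.43 FPKM against 2.81 and 2.51 (log2 fold change 1.44, standard error 0.30, adjusted p = 0.0488 from limma). H2-Eb1, a beta chain, had 2.85 and 1.40 FPKM against 0.829 and 0.604 and was not called (adjusted p = 0.244 from limma). H2-Aa and H2-Eb1 passed the filter only through the mutants, as both controls were under 1 FPKM. The counts and the median of these class II genes thus include genes admitted by the group where they are high. In each of the 6 genes both mutants were above both controls, as in 16.3% of all genes tested. At an unadjusted p under 0.05 there were 4 higher, against 2.01% of all genes tested, and limma-voom called 0, against 0.27%.
Both calls depended on the settings, and the size of both differences rested in part on mutant 1. Without mutant 1 the log2 fold change was 0.96 for H2-Aa and 1.02 for Cd74, against 1.31 and 1.44 with all samples. Without mutant 2 it was 1.663 and 1.858, in the same order of genes. Leaving out a control changed it less, to 1.360 and 1.499 without control 1 and to 1.262 and 1.382 without control 2. With all samples kept, median-ratio scaling gave an adjusted p from limma of 0.0938 for H2-Aa and 0.0979 for Cd74. Quantile normalization gave 0.0757 and 0.0922, and no filter 0.224 and 0.233.

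Ciita, the coactivator that limits class II transcription, was at 0.0604 and 0.0786 FPKM in the mutants against 0 and 0.0132 in the controls, under the filter and not tested. The partners Creb1, Nfya, Nfyb and Nfyc, which bind next to the RFX5 complex, overlapped between genotypes with log2 fold changes from -0.12 to 0.20, and limma, limma-voom and an unadjusted p under 0.05 each called 0 of the 4. Of all genes tested, limma called 2.83%, and limma-voom called 2.23% lower and 0.27% higher. At the unadjusted threshold 6.68% were lower and 2.01% higher. Among 4 MHC class I genes tested that have a related promoter module, limma and limma-voom called 0, and 1 had an unadjusted p under 0.05, H2-K1, with 77.3 and 63.0 FPKM against 48.8 and 54.4 (a log2 fold change of 0.43 and an adjusted p of 0.498 in limma). H2-K1 was higher in the mutant, as were 2.01% of all genes tested at that unadjusted threshold. B2m, H2-D1 and H2-T23 had log2 fold changes of 0.31, 0.38 and 0.09.
Markers of macrophages and other cells that carry class II summed to 57.0 and 136 FPKM in the mutants against 145 and 123 in the controls. Aif1 gave most of this, with 41.6 and 124 against 133 and 109, and the other 9 markers summed to 15.4 and 11.5 against 12.2 and 14.04. The macrophage receptor gene Csf1r was at 4.27 and 2.67 against 3.18 and 3.18 FPKM, and the B cell genes Cd79a and Ms4a1 were under 1 FPKM in every sample. The dendritic cell marker Itgax was at 0.352 and 1.13 against 0.141 and 0.122 FPKM. None of the 10 markers was at 0 in every sample, and the part of such cells in the class II values was not tested.

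**Figure D5:**
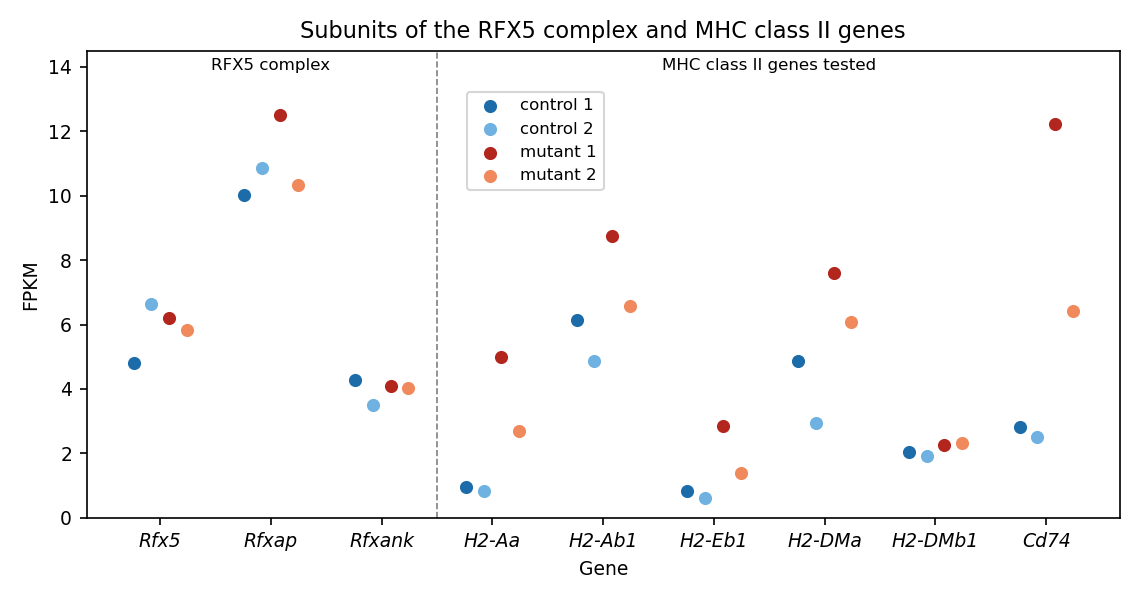
FPKM of the 3 subunits of the RFX5 complex and of the 6 MHC class II genes tested, with a point for each sample. The subunits overlap between genotypes, and in each class II gene both mutant samples lie above both controls, with mutant 1 the higher mutant in all but H2-DMb1.

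Ciliary genes were taken as 30 mouse orthologues of worm genes whose X-boxes are read by DAF-19, the single RFX factor of that animal. All 30 were tested, limma called 0 lower and 0 higher, and the median log2 fold change was -0.31 against 0.03 over all genes. At an unadjusted p under 0.05 there were 10 lower and 0 higher, against 6.68% and 2.01% of all genes tested, and limma-voom called 1 lower, against 2.23%. Both mutants were below both controls for 21 of the 30 (15.2% of all genes), and above both for 1. The largest difference was that of Nphp4, a transition zone gene, with 1.65 and 1.51 FPKM in the mutants against 4.44 and 3.86 in the controls (log2 fold change -0.99, adjusted p = 0.0523 from limma, and 0.0390 with limma-voom). The next were Ttc30b, an intraflagellar transport gene (log2 fold change -0.75, adjusted p = 0.176 from limma), and Ttc8, a gene of the BBSome (a log2 fold change of -0.72 and an adjusted p of 0.244 in limma).
The 3 genes whose promoters had been linked to RFX2 in earlier work differed among themselves. Gtf2a1l, which encodes the germ cell form of a TFIIA subunit, was lower in the mutant, with 47.3 and 61.9 FPKM against 164 and 141 (log2 fold change -1.47, standard error 0.19, adjusted p = 0.00487 from limma). Its adjusted p from limma was 0.0535 with no filter and 0.0788 with median-ratio scaling, and without control 1 its log2 fold change was -1.36. The testis linker histone gene Hist1h1t had 1.68 and 0.710 FPKM against 2.20 and 2.13 (a log2 fold change of -0.57 and an adjusted p of 0.621 in limma). Spag6, which encodes a protein of the axoneme, had 152 and 149 FPKM against 162 and 147 (a log2 fold change of -0.03 and an adjusted p of 1.0 in limma).

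Of 9 regulators that act upstream of or together with ciliary RFX factors, 5 passed the filter, and limma and limma-voom called 0 of them. Of all genes tested, limma called 2.83%, and limma-voom called 2.23% lower and 0.27% higher. Foxj1, the master regulator of motile cilia, had 19.6 and 27.3 FPKM in the mutants against 46.2 and 25.4 in the controls, with overlap. The cyclin gene Ccno, which acts in multiciliated cells, had 0.852 and 0.697 FPKM against 1.35 and 1.51 (log2 fold change -0.45, adjusted p = 0.532 from limma). It was the 1 regulator with an unadjusted p under 0.05, and 6.68% of all genes tested were lower at that threshold. Ccno passed the filter only through the controls, as both mutants were under 1 FPKM. E2f5 had a log2 fold change of -0.23 with overlap. Gmnc, Mcidas, Myb and Trp73 were under the filter, with no value above 0.124 FPKM.
Over the 4 samples, the genes whose centred log2(FPKM + 1) was most like that of Rfx2 were Zfp423, Zfp13 and 1700041C23Rik, with root-mean-square differences of 0.049, 0.050 and 0.061. Zfp423 had 0.205 and 0.298 FPKM in the mutants against 3.08 and 2.13 in the controls. For Zfp13 the values were 3.68 and 4.01 against 14.8 and 9.48, and for 1700041C23Rik 20.3 and 23.9 against 75.8 and 56.3. Because these genes were picked for this likeness, their sharing of control 1 as the highest sample is not a separate result. The likeness also depends on the pseudocount. At a pseudocount of 0.01 the log2 fold change was -3.32 for Zfp423, -1.62 for Zfp13 and -1.57 for 1700041C23Rik, against -1.46 for Rfx2.

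The promoters of the family were searched for X-boxes, since RFX1 is known to act on its own promoter. RefSeq windows of GRCm38.p6 that reach from 250 bases before to 50 bases after a start were given for 9 members. An exact X-box on either strand, with a gap of 0 to 3 bases between the arms, was found in 0 of the 9, against 1.53% of 32851 windows. With 1 mismatch allowed there were matches for Rfx1, Rfx2 and Rfx6, against 11.3% of windows. Within 1000 bases of the most upstream start in NCBIM37 an exact match was found for 0 of the 10 members, against 3.64% of starts.
The letters GTTGCC, one of the left arms that the motif allows, were found on either strand for Rfx1, Rfx2, Rfx3 and Rfx6, and 12.5% of windows hold them. GTTACC was found for Rfx2, Rfx4 and Rfx5, and 7.21% of windows hold it. The match of Rfx2, which has 1 mismatch, is shown because Rfx2 is the member whose RNA was called lower. The match, in capitals, lies 116 to 102 bases before the start, in GRCm38.p6 at chr17:56831110-56831124 on the minus strand, and is printed with its flanks, chr17:56831090-56831144.
Rfx2 promoter: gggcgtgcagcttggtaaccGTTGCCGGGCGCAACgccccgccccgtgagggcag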

How the data were processed

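Total RNA of testes was sequenced on an Illumina HiSeq 2000. Per the labels and methods, the authors aligned reads with TopHat2 2.0.6 to mm9, and the deposited files hold FPKM with confidence bounds from Cufflinks. FPKM are scaled within a sample for length and depth, with no scaling between samples seen. The members, gene lists, marker lists and tests were chosen with earlier results of these data known.

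Entries that share a symbol were summed. Genes that reached an FPKM of 1 in 2 or more samples (12985) were tested in limma 3.58.1 (R 4.3.3, lmFit and eBayes with a trend) on log2(FPKM + 1), two-sided, with Benjamini-Hochberg adjustment over all of them and a threshold of 0.05. The functions were tested on simulated data. Fragment numbers were estimated from the bounds, taken as 2 standard deviations of a Poisson count, and are not counts. Sums and shares were compared by exact permutation. Named genes were all members, every called gene and the 3 largest changes of each list, all genes of lists of at most 5, and the 3 genes most like Rfx2. H2-Ab1, H2-DMa and H2-DMb1 in a plot, and single marker genes, were chosen after their values were seen. Coding sequences were aligned pairwise. Alternatives were other pseudocounts, filters, scalings, eBayes options, replicate blocks, limma-voom, the highest entry in place of the sum, and leaving out each sample. Replicate numbers were not taken to pair the samples, as the study does not say that they do. RT-PCR, ChIP-PCR and staining were not analysed here. Most marker genes are counted in the sums of their lists and not reported here singly. Tables were made with python 3.11.15, pandas 2.3.3 and scipy 1.17.1.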

Additional observations from a re-analysis of the deposited data

How the results depend on the processing

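With 2 samples per genotype and an estimated 17.2 to 20.3 M fragments each, a gene that was not called was not shown to be unchanged. Leaving out a sample leaves 1 in its genotype, which is assumed to vary like the others. Rfx2 was lower under all 17 alternatives, and of the 13 that kept all 4 samples it passed the threshold in 10. It did not pass with no filter (log2 fold change -1.43, adjusted p = 0.0607), median-ratio scaling (-1.45, 0.0829) or limma-voom (-1.66, 0.0664), all from limma. Family members called lower were then 0 in each of these settings and 2 with robust eBayes, where Rfx3 joined Rfx2. Leaving out each sample gave Rfx2 a log2 fold change of -1.66 to -1.20. Members called higher were 0 under every alternative. Genes called lower were 199 with no filter, 202 with a filter at an FPKM of 5, 206 with median-ratio scaling and 167 to 948 with a sample left out. Genes called higher were 17, 17 and 16 in the same settings, 67 with robust eBayes and 13 to 162 with a sample left out. Without Rfx2, the ratio of the summed FPKM ran from 0.922 to 1.08 with a sample left out, and 3 members had an X-box with 1 mismatch. The share of Rfx2 kept its direction throughout. The cause of these shifts was not tested, beyond the fewer samples or genes that some settings hold.

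Leaving out a sample turned the sign of some genes near 0, none of them called. The ranges over the 4 fits were -0.40 to 0.11 for Rfx1, -0.11 to 0.18 for Rfx4, -0.12 to 0.27 for Rfx5, -0.16 to 0.27 for Rfx7, -0.087 to 0.24 for Rfx8, -0.013 to 0.24 for Rfxap, -0.059 to 0.17 for Rfxank, -0.12 to 0.31 for Creb1, -0.15 to 0.20 for Nfyb and -0.11 to 0.037 for Spag6.

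Samples with the same replicate number deviated from their group means with a correlation of -0.15 over 12985 genes. With 2 samples per genotype this value cannot show whether the numbers pair samples, which the study does not say. With the replicate block from the labels, 525 genes were called lower and 70 higher, and Rfx2 had an adjusted p of 1.28e-08 in limma. Its log2 fold change stayed at -1.43 and its standard error was larger, 0.22 against 0.19 without the block. The smaller p is therefore not stronger evidence for the difference. The crossed replicate block, chosen after seeing the data, gave 266 lower and 28 higher.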
